A study of Mus musculus with 8 samples.

Results

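The 9 genes described here encode transcription factors that set or keep the identity of striatal neurons: Foxp1, Foxp2, Bcl11b, Meis2, Isl1, Ebf1, Six3, Zfp503 and Ikzf1. They are 9 of the 24104 named genes on the array. Every non-control probe whose gene name equals one of these symbols was taken, which gave 22 of 39429 probes, 5 of them for Foxp1 and 5 for Foxp2. Expression was measured in striatum from adult female mice on the C57Bl/6J background. The animals carried either 2 intact Brd2 alleles (wildtype, 4 samples) or 1 intact allele and 1 allele with a gene-trap insertion (Brd2+/-, called heterozygous below, 4 samples). All came from crosses of heterozygous parents after serial backcrossing, and the trap is in every cell of the animal. Whether the genotypes also differ in DNA linked to Brd2 on chromosome 17 was not tested. Brd2 encodes a bromodomain protein that binds acetylated histones. Where in Brd2 the trap sits and whether a sample is a single animal are not given in the sources used here. The p-values thus describe spread among the 8 samples, whatever animals they came from.

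Most neurons of the striatum are inhibitory projection neurons, and they fall into a direct-pathway class that expresses the dopamine receptor Drd1 and an indirect-pathway class that expresses Drd2. Their identity is laid down in the embryonic ganglionic eminence and held in the adult by transcription factors of forkhead, zinc-finger, homeodomain and helix-loop-helix families. Foxp1, Bcl11b and Meis2 are expressed in both classes, Isl1 and Ebf1 are known for the direct pathway, and Six3 and Ikzf1 for the indirect pathway. Several of the 9 are also expressed outside these neurons: Isl1 in cholinergic interneurons, Ikzf1 in cells of the immune system, and Foxp1, Foxp2 and Bcl11b in layers of the cortex.

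The array reads each gene through single probes of 60 bases, so a difference holds for the transcripts that carry that stretch. Probes in coding sequence are shown for the genes whose probes are compared along the transcript (Foxp1 and Foxp2) and for Bcl11b. Their mm9 coordinates are those supplied with the array. Capitals mark the stop codon that ends the Foxp1 reading frame, and the other probes shown hold no such codon at their end. The Foxp2 probe at base 1233 and the Ebf1 probe at base 2008, not shown, also end on a stop codon. Whether these 2 lie in coding sequence was not determined.

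Foxp1, base 2369 of NM_053202, chr6:98880084-98880143, minus strand: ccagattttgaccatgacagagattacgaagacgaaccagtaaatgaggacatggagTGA
Foxp1, base 2110 of NM_053202, chr6:98885382-98889719, minus strand, across a splice junction: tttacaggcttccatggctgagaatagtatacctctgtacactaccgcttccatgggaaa
Foxp1, base 283 of NM_001197321, chr6:99112925-99112984, minus strand: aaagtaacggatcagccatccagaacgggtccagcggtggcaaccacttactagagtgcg
Foxp2, base 2375 of NM_053242, chr6:15363873-15365044, plus strand, across a splice junction: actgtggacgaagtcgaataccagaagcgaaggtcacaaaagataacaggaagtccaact
Bcl11b, base 2413 of NM_021399, chr12:109153847-109153906, minus strand: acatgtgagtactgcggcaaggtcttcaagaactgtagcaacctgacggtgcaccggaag

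The probes at bases 2110 and 2369 of Foxp1 lie near the 3′ end of the coding sequence, 5238 bases apart on the chromosome, and the probe at base 283 lies near its 5′ end, 232781 bases from the probe on the stop codon. Values below are normalized log2 intensities; a difference is heterozygous minus wildtype with the standard error (SE) of a limma fit over all 25325 probes tested, which took the dye into account. Values of single samples, and whether groups overlapped, are given as measured with the dye effect left in, unless stated otherwise. The brightness of different probes also depends on their sequence, so levels were not compared between probes or genes. Less RNA per cell and fewer cells of a type cannot be told apart in tissue RNA.

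The samples were hybridised with 2 of one genotype per array, replicates 1 and 3 in Cy3 and replicates 2 and 4 in Cy5, on 4 arrays of 1 slide. Between 37.7% and 75.5% of spots were well above background, with the lower shares in Cy3. The tissue label names the prefrontal cortex beside the striatum, and markers of striatal projection neurons were well above background in all 4 wildtype samples for 13 of 13 genes. The targeted gene was read first. At its 3′ probe Brd2 measured 13.10, 12.98, 12.64 and 12.70 in wildtype and 11.92, 11.83, 12.57 and 11.70 in heterozygous replicates 1 to 4, a difference of -0.85 (SE 0.190; limma, adjusted p = 0.39). The library labelled heterozygous replicate 3 therefore lay next to the lowest wildtype value, and results that rest on it are given with and without it. The second Brd2 probe, at base 1265, gave a difference of 0.29 (SE 0.170).

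Of the 22 probes, 16 were well above background in at least 4 of the 8 samples and were tested, 9 of them in all 8 samples. The heterozygous mean was below the wildtype mean at 15 of these 16 probes and above it at 1, where 53.7% of all probes tested had a difference below 0. At the brightest probe of each gene it was below for 9 of 9 genes, with differences from -0.75 to -0.01 and a median of -0.30 against a median of -0.02 over all probes. No probe of the 9 genes passed the threshold of adjusted p under 0.05 in limma (smallest adjusted p = 0.373), and of all probes 1 passed, or 0.00395%: a probe of Btbd9, higher in heterozygous samples by 1.82 (SE 0.14; limma, adjusted p = 0.0343) and named after its value was seen. No probe passed when any sample except the library labelled heterozygous replicate 3 was left out. The cause of the Btbd9 difference was not tested. At an unadjusted p under 0.05, 5 of the 16 probes were lower (Foxp1 base 2369, Foxp2 base 6603, Ebf1, Six3 and Zfp503 base 4078) and 0 higher, where 4.83% of all probes were lower and 4.06% higher at that level. As measured, with the dye effect left in, all heterozygous values lay below all wildtype values at 2 of the 14 probes with 8 values. These were probes of Foxp1 and Ebf1. The same, counted in the same way, held for 2.92% of all such probes. Several of the 16 probes read the same gene and are not independent of each other.

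**Figure D1:**
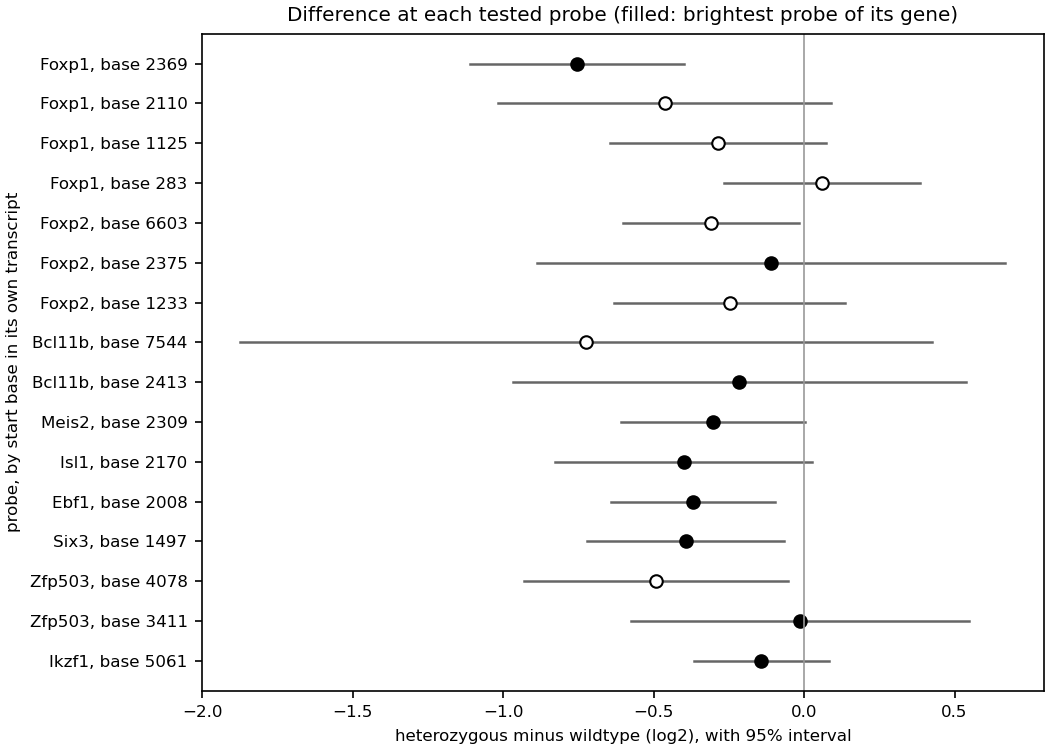
Difference between heterozygous and wildtype means (log2, x axis) for each of the 16 tested probes, named by gene and start base in its transcript, with 95% intervals of the limma fit; filled circles are the brightest probe of a gene. Of the 16 points 15 lie below 0, and the interval lies wholly below 0 for 5 probes; the Foxp1 probe at base 283, the Foxp2 probe at base 2375 and the Zfp503 probe at base 3411 change sign under another scaling.

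Normalization moves the share of all probes below 0. Without normalization between arrays it was 32.0% and the median over all probes was 0.10, while the median of the 9 brightest probes was -0.19 and 7 of 9 genes were below 0. With the scanner software's processed signals centred on the median it was 44.5% (median 0.04), with a median of -0.25 and 8 of 9 genes below 0. Without the library labelled heterozygous replicate 3, the median of the 9 genes was -0.29 and 8 of 9 were below 0. Without heterozygous replicate 2, it was -0.25 and 7 of 9 were below 0.

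**Figure D2:**
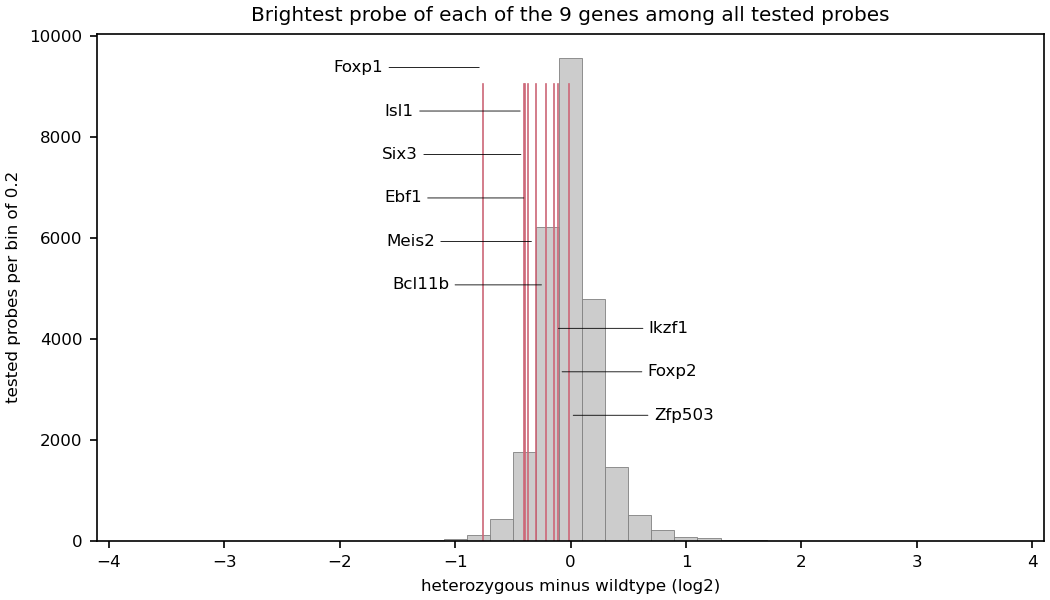
Differences of all tested probes (grey bars, probes per bin of 0.2 on the log2 scale) with the brightest probe of each of the 9 genes as a red line. The bars centre near the median of -0.02 and the lines run from -0.75 for Foxp1 to -0.01 for Zfp503; the lines of Foxp2 and Zfp503 move above 0 without normalization between arrays, and that of Zfp503 also with median-centred processed signals.

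Foxp1 is a forkhead transcription factor that projection neurons of both classes express strongly and that acts as a repressor of many of its targets. At the probe on the stop codon, the brightest of its 5, Foxp1 measured 14.26, 14.18, 14.24 and 14.32 in wildtype replicates 1 to 4. It measured 13.89, 13.39, 13.20 and 13.51 in heterozygous replicates 1 to 4. Every heterozygous value lay below every wildtype value, and the wildtype samples spread far less (14.25 ± 0.06, SD, n = 4) than the heterozygous samples (13.50 ± 0.29, SD, n = 4).

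The Foxp1 difference at base 2369 was -0.75 (SE 0.153, 95% interval -1.11 to -0.40), which puts heterozygous samples at 59.3% of wildtype. An exact two-sided permutation test of this single value gave p = 0.0286, the smallest that 4 samples against 4 can give. It permuted samples without regard to the arrays they shared. Groups without overlap always give this p, so it adds nothing to the lack of overlap, which 2.92% of probes with all 8 values had in this direction. In the limma fit over all probes the adjusted p was 0.373, which missed the threshold. Within the Cy3 samples the difference was -0.71 and within the Cy5 samples -0.80. Without the library labelled heterozygous replicate 3 it was -0.63 (SE 0.137), and over 26 other settings it stayed between -0.93 and -0.63.

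The neighbouring Foxp1 probe, at base 2110, measured 12.93, 13.01, 13.55 and 13.44 in wildtype samples, and 13.05, 12.91, 12.12 and 12.99 in heterozygous ones. The groups overlapped, with the lowest value in the library labelled heterozygous replicate 3. The difference was -0.46 (SE 0.240; limma, adjusted p = 0.607), -0.65 in Cy3 and -0.28 in Cy5, and -0.24 (SE 0.181) without that library.

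The 3 remaining Foxp1 probes were designed on other transcript records. At base 1125 of AK144920 (chr6:98956679-98956738) the values were 8.80, 8.67, 9.04 and 8.82 in wildtype samples, and 8.99, 8.42, 8.31 and 8.47 in heterozygous ones. Of these heterozygous values 3 lay below all wildtype values and the first lay among them; the difference was -0.29 (SE 0.155; limma, adjusted p = 0.619), and -0.16 without the library labelled heterozygous replicate 3.

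At base 283 of NM_001197321, the 5′ coding probe, the values were 7.69, 7.64, 8.22 and 7.90 in wildtype samples, and 8.07, 7.71, 7.98 and 7.93 in heterozygous ones. Here the groups overlapped throughout and the difference was 0.06 (SE 0.141, 95% interval -0.27 to 0.39; limma, adjusted p = 0.908), negative with both centrings of the processed signals; 3 wildtype and 2 heterozygous samples were well above background. At base 730 of BC065386 (chr6:99102053-99102112) no sample was well above background, values ran from 6.36 to 6.87, and the probe was not tested.

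The distance between the Foxp1 probes at bases 2369 and 2110 within a sample differed between genotypes by -0.29 (exact permutation p = 0.2; adjusted p = 0.267 over the 4 probe pairs examined, which were chosen after the values were seen). With 4 samples against 4, this test could not tell whether the difference at base 2369 was larger than that at base 2110. Between bases 2369 and 283 the distance differed between genotypes by -0.81 (exact permutation p = 0.0286, adjusted p = 0.114 over the same 4 pairs). The probe at base 283 was dim, with 3 wildtype and 2 heterozygous samples well above background.

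**Figure D3:**
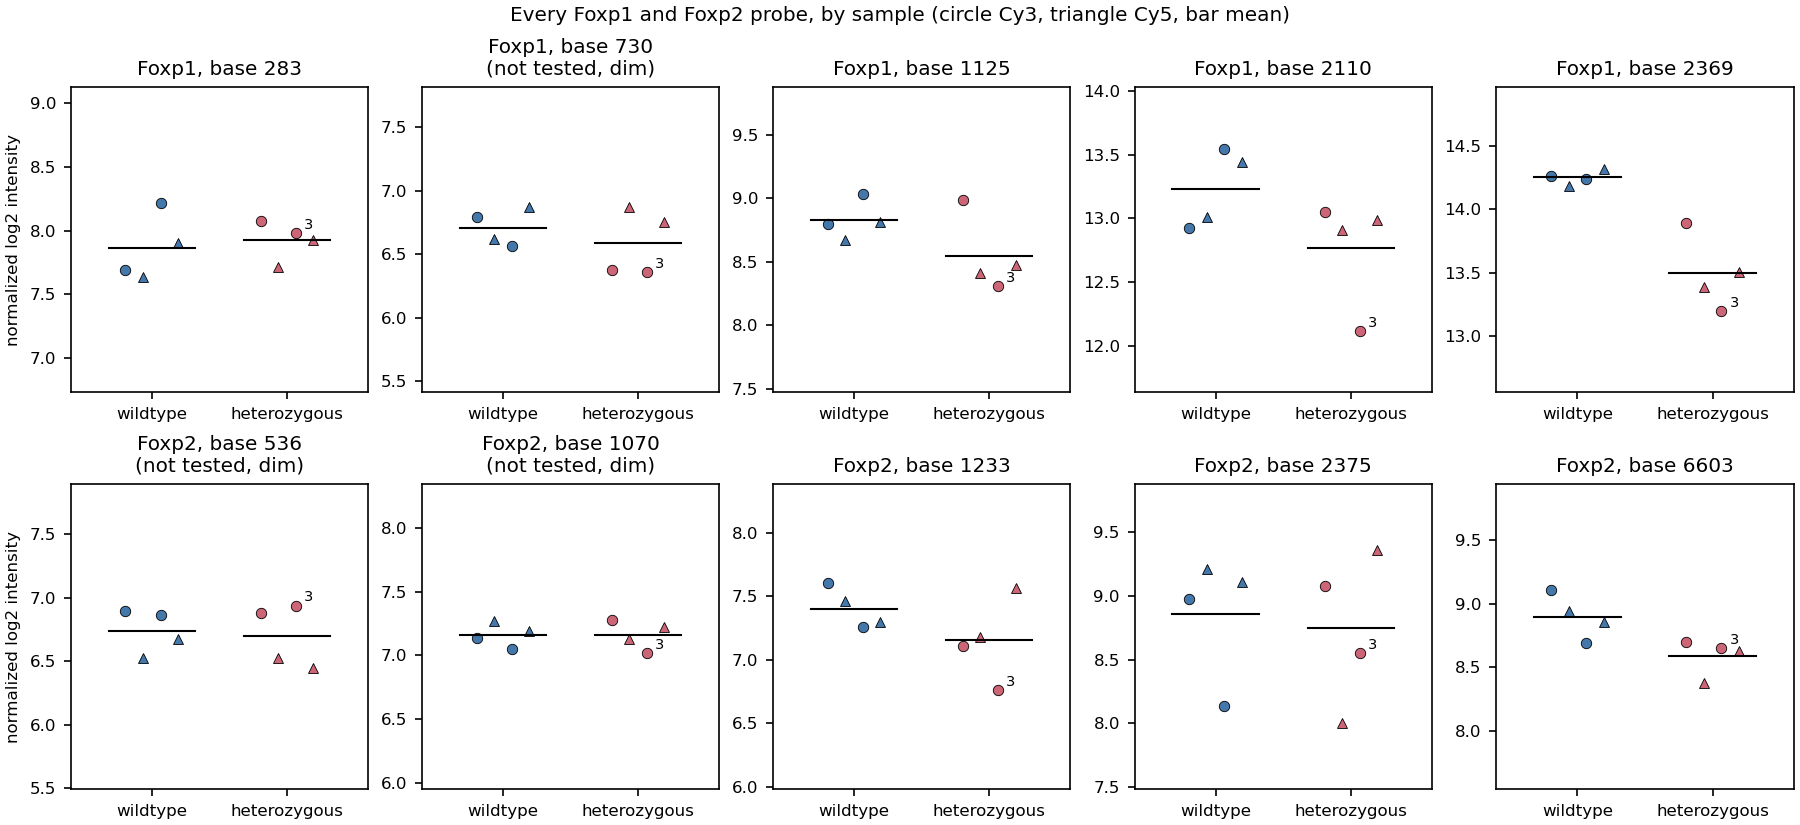
Normalized log2 intensity (y axis, all panels spanning the same number of log2 units) of all Foxp1 probes (top) and Foxp2 probes (bottom) in each sample, ordered by the start base in each probe's own transcript; circles are Cy3, triangles Cy5, bars group means, and "3" marks the library labelled heterozygous replicate 3. The groups separate at the Foxp1 probe at base 2369 alone, where wildtype values run from 14.18 to 14.32 and heterozygous values from 13.20 to 13.89.

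Foxp2, the forkhead paralogue known for its part in vocal and motor learning, is expressed in a subset of striatal neurons and in deep cortical layers. Its brightest probe, at base 2375, measured 8.97, 9.21, 8.14 and 9.11 in wildtype samples, and 9.08, 8.0, 8.55 and 9.36 in heterozygous ones. Each genotype held high and low samples, and the highest and lowest of all 8 values were both heterozygous. The difference was -0.11 (SE 0.337, 95% interval -0.89 to 0.67; limma, adjusted p = 0.933), with 0.26 in Cy3 and -0.48 in Cy5. It was 0.22 without heterozygous replicate 2, 0.01 without wildtype replicate 1 and 0.05 without normalization between arrays. It was -0.05 (SE 0.428) without the library labelled heterozygous replicate 3.

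The 3′-most Foxp2 probe, at base 6603 of the same transcript (chr6:15391821-15391880), measured 9.11, 8.94, 8.69 and 8.86 in wildtype samples, and 8.70, 8.38, 8.65 and 8.63 in heterozygous ones. As measured, only the highest heterozygous and the lowest wildtype value overlapped, and barely. The difference was -0.31 (SE 0.126; limma, adjusted p = 0.539), -0.22 in Cy3 and -0.40 in Cy5, and -0.31 without the library labelled heterozygous replicate 3. This difference could not be told apart from that at base 2375 (change within samples -0.20, exact permutation p = 0.6, adjusted p = 0.6).

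Of the other Foxp2 probes, that at base 1233 of ENSMUST00000115469 (chr6:15355616-15355675) was well above background in 2 samples per genotype. It measured 7.60, 7.46, 7.26 and 7.30 in wildtype samples, and 7.11, 7.18, 6.77 and 7.57 in heterozygous ones. The groups overlapped through heterozygous replicate 4, and the difference was -0.25 (SE 0.166; limma, adjusted p = 0.67). It was -0.12 without the library labelled heterozygous replicate 3, -0.13 without wildtype replicate 1 and -0.41 without heterozygous replicate 4. The probes at base 1070 of ENSMUST00000118133 (chr6:15204809-15204868, 7.02 to 7.28) and base 536 of AK164319 (chr6:15147188-15147247, 6.45 to 6.94) were well above background in 2 and 0 samples and were not tested.

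Bcl11b, also called Ctip2, is a zinc-finger protein needed for projection neurons to mature. Its probe at base 2413 measured 13.74, 13.30, 13.55 and 13.52 in wildtype samples, and 13.92, 13.09, 12.42 and 13.84 in heterozygous ones. Heterozygous replicates 1 and 4 lay above all wildtype values and the remaining heterozygous samples below them. The difference was -0.22 (SE 0.326; limma, adjusted p = 0.851), -0.48 in Cy3 and 0.05 in Cy5, and it was 0.16 (SE 0.208) without the library labelled heterozygous replicate 3.

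The second Bcl11b probe, at base 7544 of NM_001079883 (chr12:109148932-109148991), lost both wildtype Cy5 values to spots marked as outliers. The remaining values were 12.52 and 12.10 in wildtype samples, and 12.26, 11.47, 10.91 and 12.07 in heterozygous ones. The fit gave -0.72 (SE 0.467; limma, adjusted p = 0.669), and -0.01 without the library labelled heterozygous replicate 3, which held the lowest value at both Bcl11b probes.

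Meis2 is a homeodomain cofactor of the TALE family that marks the striatal primordium and stays on in projection neurons. At base 2309 of NM_001159569 (chr2:115689641-115689700) it measured 13.78, 13.54 and 13.75 in wildtype replicates 1, 3 and 4; replicate 2 was left out as an outlier spot. The heterozygous values were 13.51, 13.21, 13.38 and 13.40, all below the 3 wildtype values. The difference was -0.30 (SE 0.129; limma, adjusted p = 0.562), -0.21 in Cy3 and -0.44 in Cy5; with the outlier spot kept it was -0.23 (SE 0.126), and it was -0.30 without the library labelled heterozygous replicate 3.

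Zfp503, also called Nolz1, is a zinc-finger repressor of the developing striatum with 2 probes on one transcript. The probe at base 4078 of NM_145459 (chr14:22803259-22803318) is printed 10 times per array, with an SD between spots of 0.03 to 0.31 in a sample. It measured 10.07, 9.47, 9.45 and 9.57 in wildtype samples, and 9.52, 8.58, 9.28 and 9.21 in heterozygous ones. As measured, the groups overlapped through heterozygous replicate 1 alone. With the dye effect of -0.37 (Cy5 minus Cy3) removed, wildtype replicate 3, at 9.26, lay below heterozygous replicates 1 and 4. The difference was -0.49 (SE 0.190, limma adjusted p = 0.518), with -0.36 in Cy3 and -0.63 in Cy5. It was -0.46 without the library labelled heterozygous replicate 3.

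The brighter Zfp503 probe lies 607 bases away at base 3411 of the same transcript (chr14:22803926-22803985) and measured 10.50, 10.02, 10.36 and 10.38 in wildtype samples, and 10.34, 9.54, 11.16 and 10.17 in heterozygous ones. The library labelled heterozygous replicate 3 was the highest of all 8 here, and the difference was -0.01 (SE 0.243; limma, adjusted p = 0.99), 0.32 in Cy3 and -0.34 in Cy5. Without that library it was -0.23 (SE 0.198), and it was 0.15 without normalization between arrays and 0.07 with median-centred processed signals. Within samples the distance between the Zfp503 probes differed between genotypes by -0.48, with an exact permutation p of 0.0857 and an adjusted p of 0.171.

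**Figure D4:**
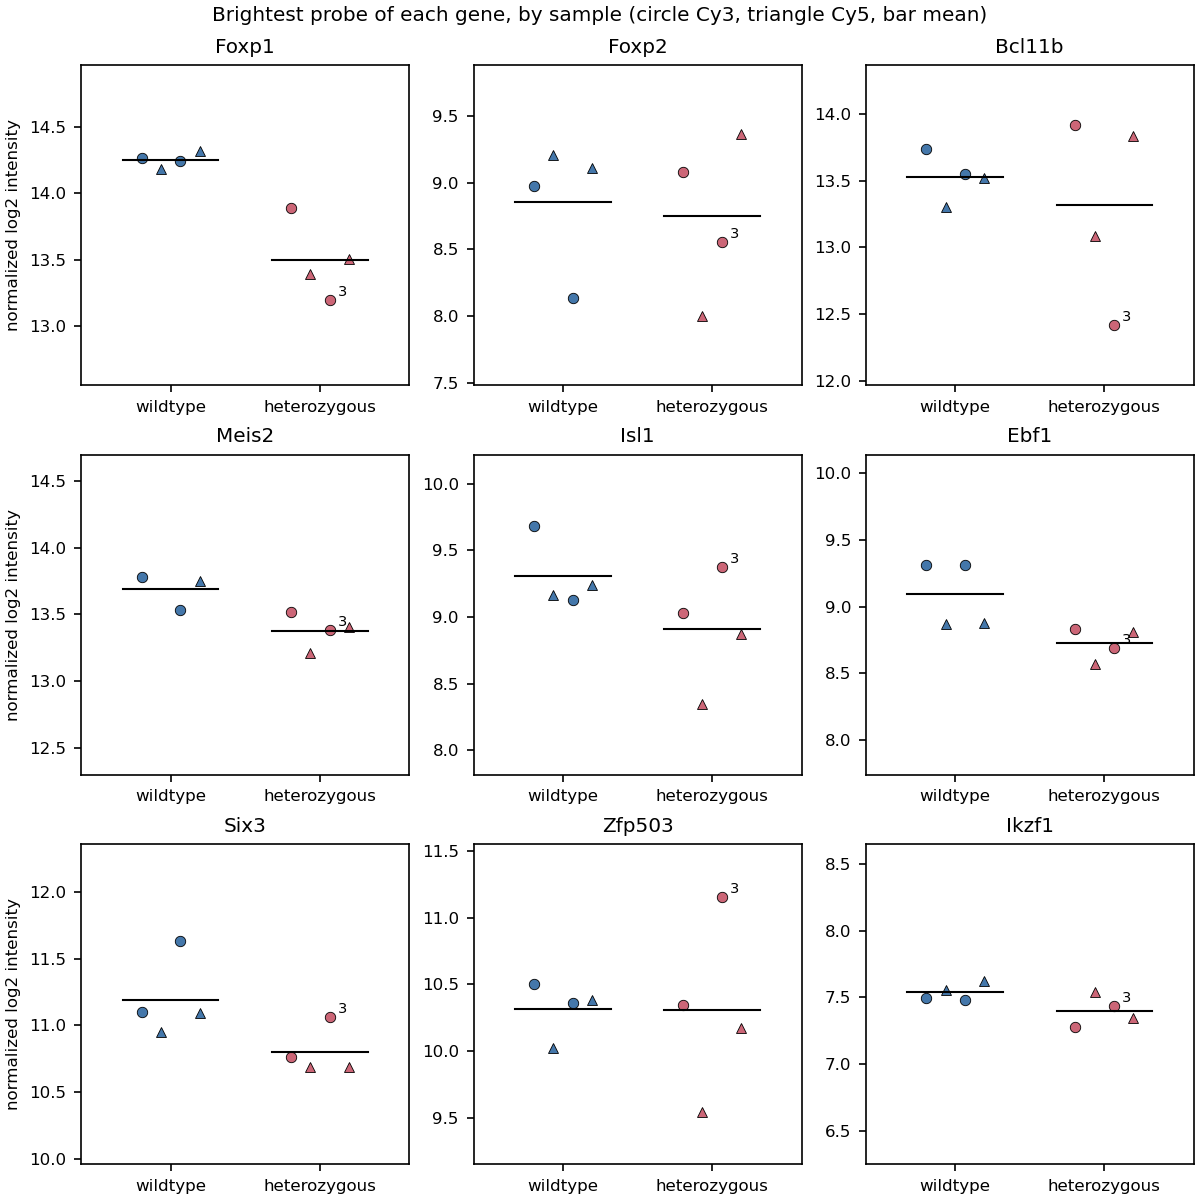
Normalized log2 intensity (y axis, all panels spanning the same number of log2 units) at the brightest probe of each gene in the 4 wildtype (blue) and 4 heterozygous (red) samples; circles are Cy3, triangles Cy5, bars group means, and "3" marks the library labelled heterozygous replicate 3. The groups do not overlap for Foxp1, Ebf1 and, with 3 wildtype values, Meis2; the heterozygous means of Foxp2 and Zfp503 lie above the wildtype means without normalization between arrays, and that of Zfp503 also with median-centred processed signals.

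Among the factors of the direct pathway, Isl1 is a LIM-homeodomain protein that holds direct-pathway identity during development. Its probe at base 2170 of NM_021459 (chr13:117088774-117088833) is also printed 10 times per array, with an SD between spots of 0.06 to 0.28. It measured 9.69, 9.17, 9.13 and 9.24 in wildtype samples, and 9.03, 8.35, 9.37 and 8.87 in heterozygous ones. As measured, all heterozygous samples except the library labelled heterozygous replicate 3 lay below the wildtype values. The dye effect here, Cy5 minus Cy3, was -0.40. With it removed, wildtype replicate 3, at 8.93, lay below heterozygous replicate 4 and the library labelled heterozygous replicate 3. The difference was -0.40 (SE 0.185; limma, adjusted p = 0.574), -0.21 in Cy3 and -0.59 in Cy5, and -0.49 (SE 0.201) without that library. Without heterozygous replicate 2 it was -0.25 (SE 0.160).

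Markers of cholinergic interneurons, which express Isl1 in the adult, ran from -0.11 to 0.18 relative to the wildtype mean in wildtype and from -0.53 to -0.02 in heterozygous samples. Of the 5 measured, 4 had a negative difference, with -0.10 (SE 0.240) for Chat, the acetylcholine-synthesising enzyme, and -0.66 (SE 0.196) for Slc5a7, the choline transporter. Without the library labelled heterozygous replicate 3, all 5 were negative and their median went from -0.10 to -0.31. Their part in the Isl1 value was not tested.

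Ebf1, a helix-loop-helix factor of direct-pathway neurons, was read at base 2008 of NM_007897 (chr11:44818438-44818497). It measured 9.31, 8.87, 9.31 and 8.88 in wildtype samples, and 8.84, 8.57, 8.69 and 8.81 in heterozygous ones. The groups did not overlap, though the closest values, 8.87 and 8.84, almost met, and the 2 wildtype Cy3 samples stood above the rest. The difference was -0.37 (SE 0.118; limma, adjusted p = 0.479), -0.55 in Cy3 and -0.19 in Cy5, and -0.29 (SE 0.120) without the library labelled heterozygous replicate 3. Ebf1 is expressed in pericytes as well, and the 8 pericyte and smooth muscle markers measured had a median difference of 0.05, with 0.37 (SE 0.137) for Pdgfrb and -0.33 (SE 0.264) for Rgs5; their part in the Ebf1 value was not tested.

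Among the factors of the indirect pathway, Six3 is a homeodomain protein needed to form Drd2 neurons. At base 1497 of NM_011381 (chr17:86023349-86023408) it measured 11.10, 10.95, 11.63 and 11.09 in wildtype samples, and 10.76, 10.68, 11.06 and 10.69 in heterozygous ones. As measured, the library labelled heterozygous replicate 3 lay among the wildtype values and the other heterozygous samples below all of them. With the dye effect of -0.29 (Cy5 minus Cy3) removed, every heterozygous value, including that of this library, lay narrowly below every wildtype value. The difference was -0.39 (SE 0.142; limma, adjusted p = 0.51), -0.45 in Cy3 and -0.33 in Cy5, and -0.44 (SE 0.159) without that library. A second Six3 probe, at base 3325 of ENSMUST00000043819, was well above background in no sample (6.66 to 6.91) and was not tested.

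Ikzf1, the zinc-finger protein Ikaros, is known for lymphocyte development and for enkephalin-expressing indirect-pathway neurons. At base 5061 of NM_001025597 (chr11:11672828-11672887) it measured 7.5, 7.56, 7.48 and 7.62 in wildtype samples, and 7.28, 7.54, 7.44 and 7.34 in heterozygous ones, with 2 samples per genotype well above background. As measured, heterozygous replicate 2 lay among the wildtype values and the others below them. With the dye effect of 0.09 (Cy5 minus Cy3) removed, every heterozygous value lay narrowly below every wildtype value. The difference was -0.14 (SE 0.097; limma, adjusted p = 0.674), and -0.18 (SE 0.103) once the library labelled heterozygous replicate 3 was left out. The probes at bases 1726 (6.97 to 7.59) and 827 (6.91 to 7.33) were not tested.

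Cells of the immune system express Ikzf1 too. Microglial markers ran from -0.31 to 0.30 in wildtype and from -0.18 to 0.06 in heterozygous samples relative to the wildtype mean, with -0.05 (SE 0.129) for Cx3cr1 and -0.15 (SE 0.280) for P2ry12. Lymphocyte markers ran from -0.12 to 0.18 and from -0.40 to -0.11; all 5 measured had a negative difference, with -0.48 (SE 0.229) for Cd3e, and Cd3d was among the 3 not tested. Without the library labelled heterozygous replicate 3, 3 of these 5 and 3 of the 10 microglial markers were negative, against 6 microglial markers with it. Their part in the Ikzf1 value was not tested.

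As a mean over the brightest probes, the 9 factors stood at 0.05, -0.03, -0.11 and 0.09 in wildtype and at -0.19, -0.53, -0.35 and -0.13 in heterozygous replicates 1 to 4, relative to the wildtype mean and after removal of the dye effect. All heterozygous samples lay below all wildtype samples, with replicate 2 lowest. The genotypes also separated in other lists: further factors of projection neurons were lower, and cortical excitatory markers were higher. Factors of striatal interneurons were higher too (-0.03 to 0.04 in wildtype, 0.15 to 0.29 in heterozygous samples). So were markers of interneurons other than cholinergic ones (-0.25 to 0.16 and 0.21 to 0.76). The remaining lists overlapped. The 13 markers of striatal projection neurons had another order over the samples than the mean of the 9 factors. They stood at 0.12, -0.71, -1.09 and -0.21 in heterozygous replicates 1 to 4 and between -0.08 and 0.10 in wildtype. The brightest probes of Foxp1 and Bcl11b had the same order as these markers over the heterozygous samples, from replicate 1 down through 4 and 2 to 3. Those of the other factors did not. Differences of all 13 markers were negative, their median being -0.42 against -0.30 for the 9 factors. Without the library labelled heterozygous replicate 3, 10 of the 13 markers were negative with a median of -0.17, and the median of the 9 factors was -0.29. The part of the number of projection neurons in the values of the 9 factors was not tested. Ppp1r1b, the dopamine-regulated phosphatase inhibitor DARPP-32, differed by -0.36 (SE 0.228), and Drd1 by -0.53 (SE 0.343).

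Cortical excitatory neurons also express Foxp1, Foxp2 and Bcl11b, and their 9 markers stood at -0.18, 0.66, -0.28 and -0.20 in wildtype and at 2.01, 1.29, 1.03 and 0.82 in heterozygous replicates 1 to 4. All 9 had a positive difference, with 2.15 (SE 0.402) for the glutamate transporter gene Slc17a7 and 1.92 (SE 0.509) for Tbr1. The wildtype sample with the highest level of these markers, replicate 2, measured 14.18 for Foxp1, the lowest of the wildtype values. Heterozygous replicate 1, with the highest cortical level of all, measured 13.89, the highest of the heterozygous values. That sample also had the highest level of projection neuron markers of all samples, 0.12. For Foxp2 and Bcl11b, wildtype replicate 2 measured 9.21 and 13.30, the highest and the lowest of the wildtype values. Heterozygous replicate 1 measured 9.08 and 13.92. The dye effect was removed from the marker levels but not from these values of the 3 factors. Whether cortical RNA takes part in the values of the 9 factors was not tested.

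The library labelled heterozygous replicate 3 also stood apart in markers of other regions. Markers of thalamus and hypothalamus stood at 2.04 there, against -0.31, 0.29 and 0.87 in heterozygous replicates 1, 2 and 4 and a wildtype range of -0.24 to 0.15. Choroid plexus markers stood at 1.71 there, against -0.80, 0.28 and 0.38 in those 3 samples and a wildtype range of -0.24 to 0.12. Their part in the values of the 9 factors was not tested; differences without that library stand beside each brightest probe above.

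**Figure D5:**
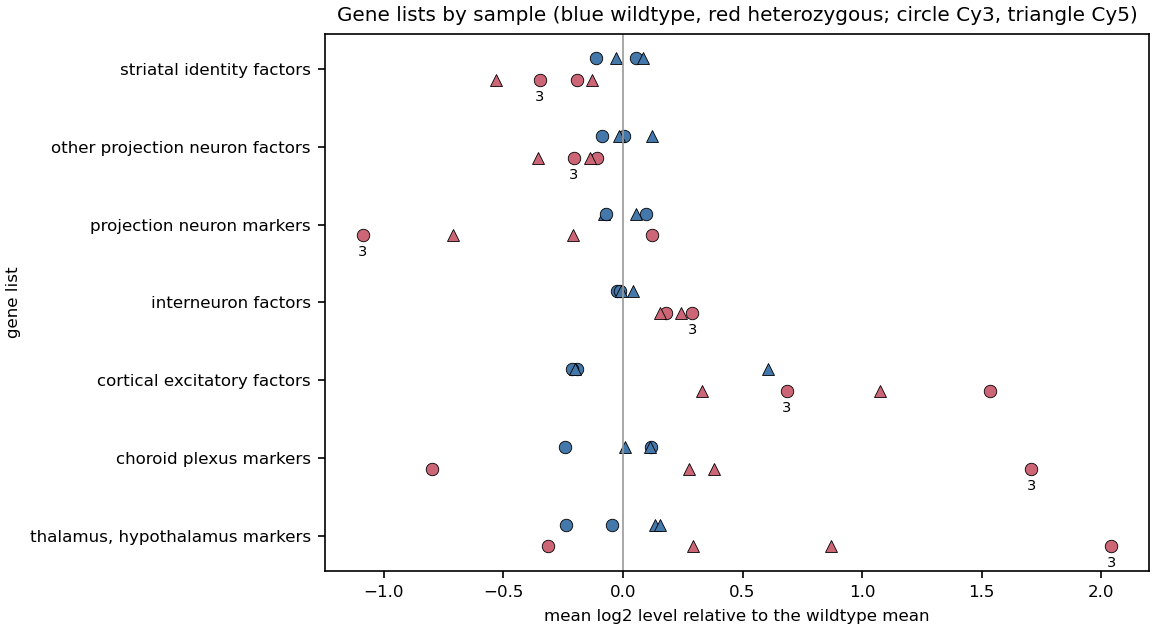
Mean log2 level of gene lists (rows) in each sample relative to the wildtype mean, after removal of the dye effect; blue is wildtype, red heterozygous, circles Cy3, triangles Cy5, and "3" marks the library labelled heterozygous replicate 3. The 9 striatal identity factors run from -0.11 to 0.09 in wildtype and from -0.53 to -0.13 in heterozygous samples; replicate 3 lies at -1.09 for projection neuron markers and at 2.04 for thalamic and hypothalamic markers.

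Other transcription factors were read at the brightest probe of each gene in 5 lists, and none of their 60 genes passed the threshold over all probes. Of 15 further factors of projection neurons, 11 had a negative and 4 a positive difference, with a median of -0.21. At an unadjusted p under 0.05, 3 of the 15 were lower and 1 higher, where 4.83% and 4.06% of all probes were. Tshz1, a zinc-finger homeobox factor, differed by -0.44 (SE 0.143; limma, adjusted p = 0.479) with groups that did not overlap, and Nfib, a nuclear factor I gene, by 0.45 (SE 0.175; adjusted p = 0.531). The list's level ran from -0.09 to 0.12 in wildtype and from -0.36 to -0.11 in heterozygous samples, and leaving out the library labelled heterozygous replicate 3 gave a median of -0.19.

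Progenitor and patterning factors of the ganglionic eminence had a median near that of all probes. Of 10 tested, 6 were below and 4 above 0, with a median of -0.05, and the smallest p belonged to Pax6 (0.37, SE 0.129) and Sp8 (0.29, SE 0.113), both on the higher side. Gsx2 and Vax1 were too dim to be tested.

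Paralogues of the 9 factors had 6 negative and 8 positive differences among 14 tested, with a median of 0.06. Bcl11a, the paralogue of Bcl11b that is common in cortex, differed by 0.60 (SE 0.145; limma, adjusted p = 0.413), and Ikzf4 by -0.32 (SE 0.103; adjusted p = 0.479). Foxp4, the remaining forkhead paralogue in brain, differed by 0.19 (SE 0.157).

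Factors of striatal interneurons had 4 negative and 7 positive differences among 11 tested, with a median of 0.13, or 0.03 once the library labelled heterozygous replicate 3 was left out. Npas1 differed by 0.82 (SE 0.296; limma, adjusted p = 0.51) and Sox6 by 0.41 (SE 0.154; adjusted p = 0.518). Factors of cortical excitatory neurons had 1 negative and 9 positive differences among 10 tested, with a median of 0.90. Their smallest p belonged to Emx1, at 1.17 (SE 0.255; limma, adjusted p = 0.39), and the next to Tbr1, whose difference was the largest of the list. Cux1 was the negative one, at -0.11 (SE 0.210).

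Across the 8 samples, with the dye effect removed, the 36 pairs of the 9 factors had Pearson correlations from -0.41 (Bcl11b and Zfp503) to 0.87 (Foxp1 and Meis2, 7 samples), with a median of 0.42 and 29 pairs above 0. Foxp1 and Ebf1 had r = 0.83 over 8 samples. All points share libraries and the genotype difference, so these values are descriptions. Of 10412 genes with a brightest probe well above background in all samples, the pattern of Foxp1 was most like that of Arhgef7 (r = 0.99), a guanine nucleotide exchange factor gene, Serpina9 (r = 0.98), a serine protease inhibitor gene, and 2900064F13Rik (r = 0.98). For Foxp2, the most alike of 10413 were the zinc-finger gene Zkscan3 (r = 0.98), the chromatin gene Arid4a (r = 0.98) and Zfp763 (r = 0.98).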

How the data were processed

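The members, lists and tests were chosen with earlier results of these data known. The authors' deposited scanner output holds linear spot intensities (mean signal, median local background) on array design 026655, made by Agilent Feature Extraction 10.7.3.1 per the file headers, with mm9 probe coordinates. The deposited value table holds each spot's background-subtracted median intensity as a ratio to its column's median, found from the values: every listed spot matched within 0.0001 and each column has a median of 1. It served as an alternative only.

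The deposited intensities went through normexp with an offset of 50, then within-array loess and between-array Aquantile, and were split into single-channel log2 values here (limma 3.58.1, R 4.3.3, statmod 1.5.0). Control spots (1377) and outlier spots (230 to 978 per sample) were dropped once the background was corrected; no spot was saturated, and replicate spots were averaged. Probes well above background in at least 4 of 8 samples were kept (25338, of which 25325 could be tested). The limma fit of each probe (lmFit, eBayes; 2.87 prior degrees of freedom) had terms for genotype and dye, with arrays as a random block whose consensus correlation was -0.01. Adjustment was by Benjamini-Hochberg over all probes, with a threshold of adjusted p under 0.05. Slide and scan were single and could not be tested as batches, and each array held 1 genotype.

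Genes were named by rule: the 9 factors with every probe, Brd2, the 2 genes with the smallest p of each transcription factor list, the first 2 genes of each marker list that bears on a member, and the 3 genes most alike to Foxp1 and to Foxp2. Btbd9, Foxp4, Cux1, Gsx2 and Vax1 were named once their values were known. Alternatives covered background correction, normalization, the value table, the filter, the probe choice, array and replicate blocks, dye, variance model, outliers, threshold and single samples. Sequences are those of the deposited files.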

Additional observations from a re-analysis of the deposited data

Results flagged for a closer look

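At the Foxp2 probe at base 2375, wildtype replicate 3 stood apart from the other wildtype samples after removal of the dye effect, at 8.25 against a nearest value of 8.99. It was the 1 group past Dixon's 95% critical value for 4 samples among the 32 groups of 4 values examined (the 16 tested probes and the 3′ Brd2 probe, each genotype apart), where chance alone gives about 1 in 20 groups. Without this sample the Foxp2 difference at that probe was -0.35.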

How the results depend on the processing

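No probe of the 9 factors passed the threshold under any of the 26 alternatives, and no gene of the 5 transcription factor lists did. Over all probes, the count past the threshold was 0 without normalization between arrays, with the deposited value table, without the filter, with the brightest probe of each gene, in Cy3 alone and with the replicate block; it was 2 at adjusted p under 0.10. It ranged from 0 to 1 when single samples were left out: 1 probe passed when the library labelled heterozygous replicate 3 was left out, and 0 when any other single sample was. Same-numbered samples did not deviate together (r of 0.17, -0.30, -0.19 and -0.26), so the numbers are not taken to pair samples; with the replicate block the Foxp1 difference at base 2369 was -0.75 (limma, adjusted p = 0.446).

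Of the 16 differences, 12 kept their sign throughout. The Foxp1 difference at base 283 was -0.0305 and -0.12 with processed signals centred on the median and on the 75th percentile, and -0.0611 to 0.18 without single samples. Foxp2 at base 2375 was 0.0479 without normalization between arrays and 0.26 in Cy3, and -0.35 to 0.22 without single samples. Bcl11b at base 2413 was 0.0499 in Cy5, and -0.56 to 0.16 without single samples. Zfp503 at base 3411 was 0.0695 with median-centred processed signals, 0.15 without normalization between arrays and 0.32 in Cy3, and -0.23 to 0.20 without single samples. Bcl11b at base 7544 ran from -1.35 to -0.01 without single samples. The cause was not tested. The number of genes below 0 at their brightest probe was 7 to 9 in the alternatives that kept all 9 genes, and 6 of 6 among those well above background in all samples. Without normalization between arrays, where all probes had a median of 0.10, other differences moved by over 1.5 times: -0.10 for Foxp1 at base 1125, -0.14 for Foxp2 at base 6603, -0.13 for Bcl11b at base 2413, -0.24 for Isl1, -0.19 for Ebf1, -0.24 for Six3 and -0.32 for Zfp503 at base 4078. Low signal limits the 7 tested probes that were not well above background in all samples.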
